A study of Arabidopsis thaliana with 4 samples.

Results

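The expansins and the xyloglucan endotransglucosylase/hydrolases (XTHs) are 2 families of secreted proteins that act on the growing plant cell wall. Transcripts of 42 listed Arabidopsis loci, 26 expansins and 16 XTHs, were followed here, chosen by locus from the EXPA, EXPB, EXLA, EXLB and XTH gene families. All 42 were among the 34261 genes on the array, where a transcript without a matched locus counts as a gene of its own. The sahy9-1 seedlings carry a T-DNA insertion in APUM23, which encodes a nucleolar Pumilio RNA-binding protein of pre-rRNA processing, and stand for a single mutant allele. The Col-0 seedlings are the wild type. Seedlings of both genotypes were grown for 10 days and then placed on 150 mM NaCl for 1 day, and RNA from whole seedlings was hybridized to 2 single-color Agilent arrays a genotype. All 4 arrays come from salt-treated seedlings, so the values compare the genotypes under salt and give no response to salt itself. The arrays of a genotype are labeled as replicates, and per the methods of the study they come from 2 biological experiments; whether equal numbers in the genotypes mark the same experiment is not stated.

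In a growing cell the wall is a network of cellulose microfibrils, xyloglucan and pectin that must yield to turgor without breaking. Expansins loosen contacts between cellulose and matrix polysaccharides without cutting them and work best in the acidic wall produced by plasma membrane proton pumps. XTHs cut xyloglucan chains and join the cut end to another chain, while a few members of the family mainly hydrolyze the chain. Both families respond to hormones, light, touch and water status, and they are known from the expansion of roots, root hairs, hypocotyls and leaves.

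Levels are given as the log2 of the background-subtracted spot intensity minus the 75th percentile of the same array, so that 0 is the brightness of the 75th-percentile spot. Differences are sahy9-1 minus Col-0 on the same log2 scale, and a level of one gene cannot be set against that of another because each has its own probe. Between 74.6% and 76.3% of gene spots were well above background on an array, and no gene spot was saturated. Arrays of the same genotype correlated at 0.996 in sahy9-1 and 0.995 in Col-0 over the genes bright enough to be tested, against 0.947 to 0.959 between genotypes. APUM23 itself (AT1G72320) had levels of -3.34 and -3.58 in sahy9-1, against -0.61 and -0.41 in Col-0, a 7.71-fold lower signal (adjusted P = 0.000979, limma with Benjamini-Hochberg adjustment). All 7 leaf photosynthesis markers and all 7 root markers were well above background on all 4 arrays. In whole seedlings, fewer cells of a type and less RNA per cell cannot be told apart.

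Of the 42 genes, 38 passed the signal filter (100 or more intensity units on each array of 1 genotype or the other) and were tested. At an adjusted P of 0.05 or less, 9 of these were higher in sahy9-1 and 11 were lower, while 18 were not called. Those are 23.7% and 28.9% of the tested members, close to the 25.4% of all 21732 tested genes that were higher and the 24.0% that were lower. The 2 families thus moved in both directions, and the share called was near that of the whole array. With a change of at least 3-fold as well, XTH31 was the only member higher, and EXPB1 and XTH15 were the only members lower, where 1.66% and 1.59% of all tested genes were called. The arrays of the genotypes did not overlap for 27 of the 38 members (71.1%), against 80.3% of all tested genes. The methods' t-test, which takes the spread of each gene from its own arrays, called no member after Benjamini-Hochberg adjustment, against 17 of the 38 at an unadjusted P of 0.05 or less. In size, the median absolute log2 change was 0.42 in the listed expansins and 0.57 in the listed XTHs, against 0.28 over all tested genes. It was 0.37 in the 11 tested XTHs outside the members. The members were chosen with earlier results of these data known, so these sizes are no independent result about the families.

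**Figure D1:**
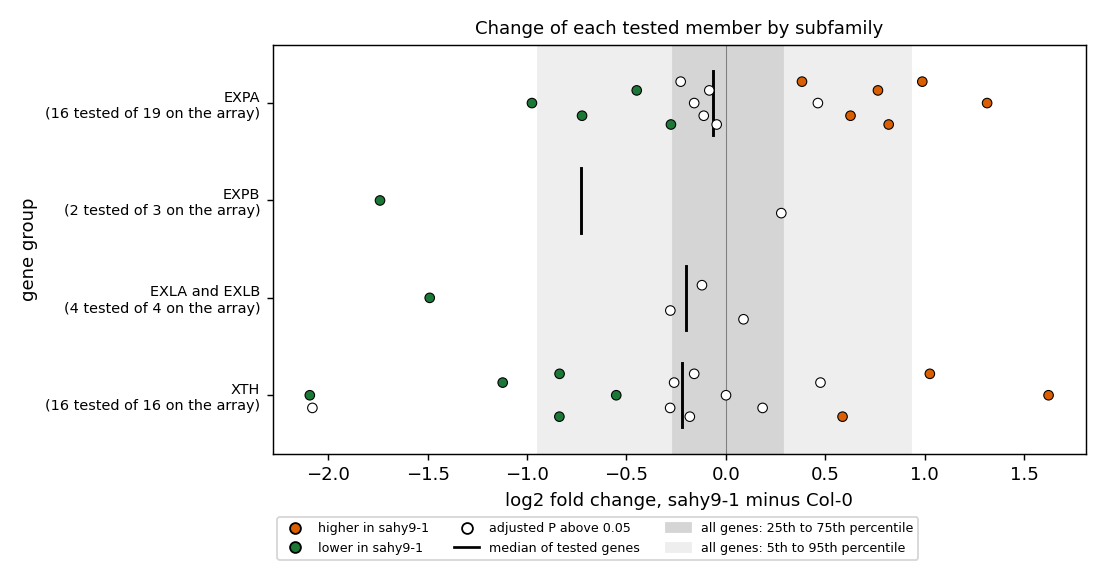
Log2 fold change, sahy9-1 minus Col-0, of each tested member (points) by subfamily (rows), with the median as a black line; grey bands give the 25th to 75th and the 5th to 95th percentiles of all genes tested. The EXPA and XTH points spread to both sides of 0, with medians of -0.06 and -0.22, and EXPB1 and EXLB1 lie far to the left of the other members of their rows.

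The α-expansins (EXPA) are the main wall-loosening subfamily. Of 19 listed genes, 16 were tested, of which 6 were higher in sahy9-1, 4 were lower and 6 were not called, with a median log2 change of -0.06. The called EXPA genes are 37.5% higher and 25% lower, against 25.4% and 24.0% of all tested genes. EXPA17 and EXPA4 had the strongest rises, and EXPA5 had the strongest fall. None reached 3-fold.

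EXPA17 (AT4G01630), known for its expression at sites of lateral root emergence, had levels of 1.75 and 1.43 in sahy9-1, against 0.32 and 0.23 in Col-0. Its level was 2.49-fold higher in the mutant (log2 change 1.31, SE 0.13, adjusted P = 0.00368). Both mutant arrays lay above both wild-type arrays, where the genotypes did not overlap for 80.3% of all tested genes. EXPA4 (AT2G39700) had levels of -2.94 and -3.11 in sahy9-1, against -3.96 and -4.06 in Col-0, which made it 1.98-fold higher in the mutant (log2 change 0.99, SE 0.09, adjusted P = 0.00336). EXPA4 is a dim gene, and its rise was not called with the normexp background correction (log2 change 0.24, adjusted P = 0.666). That alternative also took the median signal of a spot and added an offset of 50. Its median log2 change over all tested genes was -0.10, against -0.004 in the main fit.

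The other EXPA genes called higher in sahy9-1 changed by smaller amounts. EXPA8 (AT2G40610), which responds to gibberellin in germinating seeds, had levels of -1.32 and -1.21 in sahy9-1, against -2.13 and -2.04 in Col-0 (log2 change 0.82, adjusted P = 0.00355), and it was not called with normexp (0.59, adjusted P = 0.109). EXPA20 (AT4G38210) had levels of 0.09 and 0.11 in sahy9-1, against -0.65 and -0.68 in Col-0 (log2 change 0.76, adjusted P = 0.00301), and its arrays lay close together within each genotype. EXPA3 (AT2G37640) had levels of 0.15 and 0.38 in sahy9-1, against -0.54 and -0.18 in Col-0 (log2 change 0.63, adjusted P = 0.0283). EXPA1 (AT1G69530), an expansin of expanding leaves and guard cells, was 1.30-fold higher, at 2.30 and 2.34 in sahy9-1, against 1.88 and 1.99 in Col-0 (adjusted P = 0.0139). The calls of EXPA1 and EXPA3 were lost without either sahy9-1 array, with adjusted P values up to 0.0952 and 0.123, and that of EXPA3 also without Col-0 replicate 1 (adjusted P = 0.0675).

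Among the genes lower in the mutant, EXPA5 (AT3G29030), which promotes vegetative growth and responds to brassinosteroid, had levels of -0.89 and -0.96 in sahy9-1, against 0.04 and 0.06 in Col-0. The log2 change of -0.98 (SE 0.07, adjusted P = 0.00216) corresponds to a 1.97-fold lower level, and a second probe gave -1.05. EXPA15 (AT2G03090) followed at -0.96 and -1.07 in sahy9-1, against -0.27 and -0.32 in Col-0 (log2 change -0.72, adjusted P = 0.00397). EXPA10 (AT1G26770), studied for its effect on leaf size and pedicels, had a log2 change of -0.45 (adjusted P = 0.0109), and EXPA14 (AT5G56320), linked like EXPA17 to lateral roots, one of -0.28 (adjusted P = 0.0341). The lateral root expansins EXPA14 and EXPA17 therefore went in opposite directions. EXPA10 lost its call without either sahy9-1 array (adjusted P up to 0.0718), and EXPA14 whichever array was left out (adjusted P between 0.0537 and 0.2).

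The 6 tested EXPA genes that were not called had log2 changes from -0.23 to 0.46. They included EXPA7 (AT1G12560) and EXPA18 (AT1G62980), the expansins of root hairs. EXPA7 had levels of -1.71 and -1.66 in sahy9-1, against -1.35 and -1.70 in Col-0, and EXPA18 had levels of -1.56 and -1.72 in sahy9-1, against -1.21 and -1.61 in Col-0. In both genes the Col-0 arrays differed more between themselves than the genotype means did, and the 95% intervals of the change ran from -0.51 to 0.19 and from -0.63 to 0.18. Without Col-0 replicate 2, both were called lower (log2 changes -0.34 and -0.42, adjusted P = 0.036 and 0.0435). The 7 root hair markers used as a comparison were all well above background on all arrays. Their summed levels, in which brighter probes weigh more, were 0.929 and 0.874 times the 75th percentile in sahy9-1, against 1.38 and 1.04 in Col-0. All 6 that were tested had a log2 change below 0, and 2 were called lower, RSL4 (log2 change -0.60, adjusted P = 0.0241) and RHD6 (-0.40, 0.0391), both transcription factors of root hair growth. Of all 21732 tested genes, 10967 had a change below 0 and 24.0% were called lower. What part root hairs had in the EXPA7 and EXPA18 values was not tested. EXPA6 (AT2G28950), EXPA11 (AT1G20190) and EXPA13 (AT3G03220) had log2 changes of -0.11, -0.08 and -0.05. EXPA9 (AT5G02260) had one of 0.46 (adjusted P = 0.0693), and it was called higher without sahy9-1 replicate 2 (adjusted P = 0.0358).

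**Figure D2:**
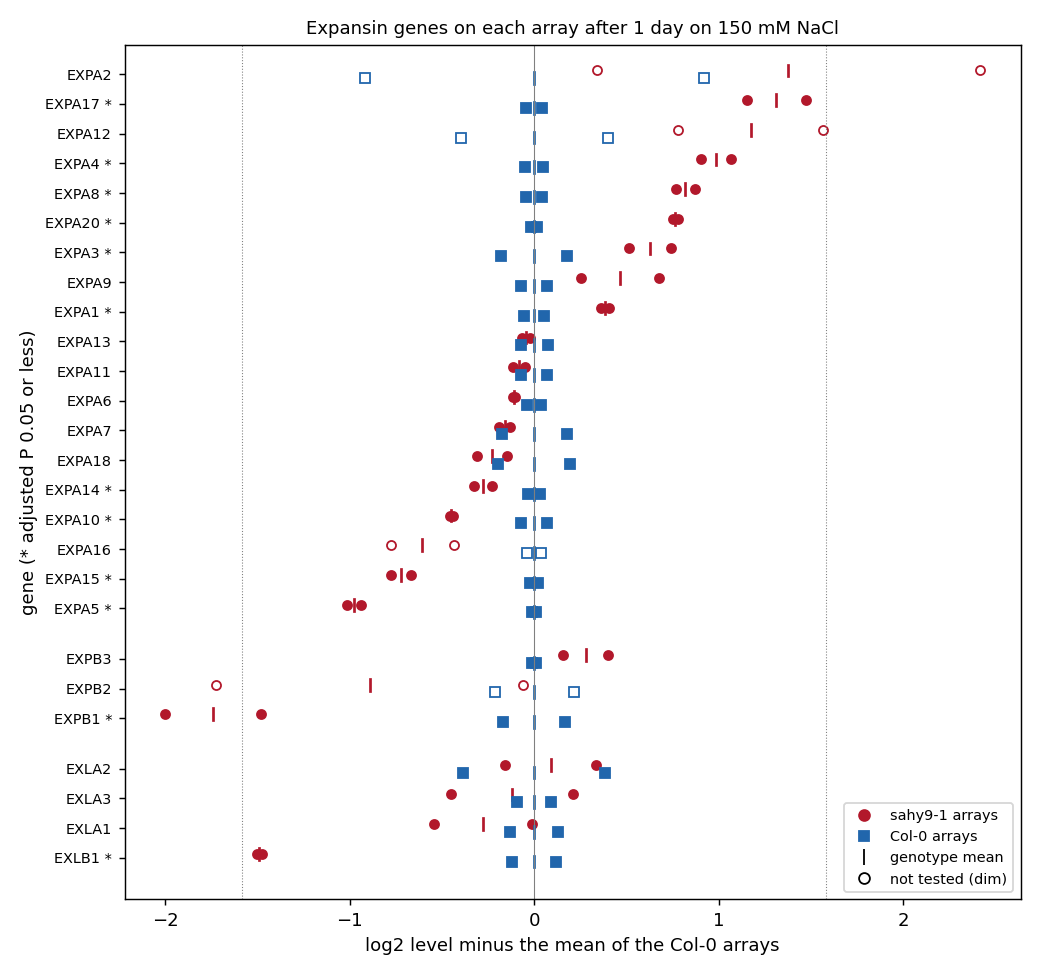
Log2 level of each of the 26 expansins on each array, set to the mean of the Col-0 arrays of that gene (x axis); red circles are sahy9-1 arrays, blue squares Col-0 arrays, ticks the genotype means, dotted lines a 3-fold change, and open symbols genes too dim to test. EXPA17 lies farthest right and EXPB1 and EXLB1 farthest left among the tested genes, while EXLA1, EXLA2 and EXLA3 overlap between genotypes.

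The 3 other EXPA genes were too dim for the signal filter. EXPA2 (AT5G05290), an expansin of seed germination, was well above background on 1 array, a sahy9-1 array. EXPA12 (AT3G15370) had levels of -5.13 and -4.34 in sahy9-1, against -6.31 and -5.51 in Col-0, and EXPA16 (AT3G55500) had levels of -6.47 and -6.13 in sahy9-1, against -5.74 and -5.66 in Col-0. The arrays of the genotypes did not overlap for either, in opposite directions. Among all tested genes 80.3% did not overlap, but that share covers only genes that passed the filter and is no baseline for EXPA12 and EXPA16. Neither gene entered the main test. With a filter on spots well above background instead of on intensity, EXPA16 was called lower (log2 change -0.61, adjusted P = 0.0318) and EXPA12 was not called (1.17, 0.0791); with no filter neither was called (adjusted P = 0.0751 and 0.151).

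The β-expansins (EXPB) are the smaller subfamily of true expansins. EXPB1 (AT2G20750) had the largest fall of any tested expansin, with levels of -3.77 and -4.29 in sahy9-1, against -2.12 and -2.46 in Col-0. Every mutant array was below every wild-type array, where the genotypes did not overlap for 80.3% of all tested genes. The level of EXPB1 was 3.34-fold lower (log2 change -1.74, 95% interval -2.31 to -1.17, adjusted P = 0.00542). The change fell short of 3-fold without sahy9-1 replicate 2 (-1.48) and without Col-0 replicate 1 (-1.57), and it stayed past adjusted P = 0.05 in both. EXPB3 (AT4G28250) had levels of -0.90 and -1.14 in sahy9-1, against -1.29 and -1.31 in Col-0, and was not called (log2 change 0.28, adjusted P = 0.078). EXPB2 (AT1G65680) stayed at background on all 4 arrays and was not tested.

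Expansin-like proteins (EXLA and EXLB) share the domains of expansins, but wall-loosening activity has not been established for them. EXLB1 (AT4G17030) had levels of 2.68 and 2.65 in sahy9-1, against 4.27 and 4.03 in Col-0. Its 2.81-fold lower level (log2 change -1.49, SE 0.10, adjusted P = 0.00216) came with close agreement of the mutant arrays, and a second probe gave -1.71. EXLB1 passed 3-fold with the mean of its probes (-1.60) and without Col-0 replicate 2 (-1.61). EXLA1 (AT3G45970), EXLA2 (AT4G38400) and EXLA3 (AT3G45960) had log2 changes of -0.28, 0.09 and -0.12 and were not called (adjusted P from 0.309 to 0.828). For EXLA2 the arrays gave -0.03 and 0.47 in sahy9-1, against -0.25 and 0.51 in Col-0, so the interval of its change, from -0.73 to 0.91, was wide. EXLA3 and EXLA1 are neighbors with no annotated protein-coding gene between them. The 2 probes of EXLA3 stand for different transcripts and disagreed in sign, at -0.12 and 0.16.

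All 16 XTHs were tested and well above background on all 4 arrays. Of these, 3 were higher in sahy9-1, 5 were lower and 8 were not called, with a median log2 change of -0.22. The called XTHs are 18.8% higher and 31.2% lower, against 25.4% and 24.0% of all tested genes. The group includes both the largest rise and the largest fall past adjusted P among all 42 genes. The expansins, at 6 higher and 6 lower of 22 (27.3% each), had a median of -0.10. Whether the families differ was not tested, since genes of a family are not replicates.

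XTH31 (AT3G44990), which in assays of the purified enzyme mainly hydrolyzes xyloglucan, had levels of 4.40 and 4.44 in sahy9-1, against 2.54 and 3.06 in Col-0. The mutant arrays lay close together and well above the wild type, 3.08-fold higher (log2 change 1.62, 95% interval 1.14 to 2.11, adjusted P = 0.00466). Without Col-0 replicate 1 the change was 1.36 and under 3-fold, with an adjusted P of 0.00683. XTH30 (AT1G32170), which has been studied in salt tolerance, had levels of 1.49 and 1.66 in sahy9-1, against 1.38 and 1.39 in Col-0, and was not called (log2 change 0.18, adjusted P = 0.129).

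XTH23 (AT4G25810) and XTH24 (AT4G30270) were the other XTHs higher in the mutant. XTH23 had levels of 3.75 and 3.96 in sahy9-1, against 2.49 and 3.17 in Col-0 (log2 change 1.03, SE 0.24, adjusted P = 0.0262). XTH24 had levels of 4.20 and 4.48 in sahy9-1, against 3.58 and 3.93 in Col-0 (log2 change 0.59, SE 0.16, adjusted P = 0.0383), and its 5 probes gave log2 changes from 0.53 to 0.73. Both calls were lost without either sahy9-1 array, with adjusted P up to 0.107 and 0.155, and that of XTH24 also without Col-0 replicate 1 (0.107).

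XTH15 (AT4G14130) had the largest change past adjusted P of all 42 genes. Together with XTH16 it is known from petiole elongation in shade. XTH15 had levels of -2.07 and -1.95 in sahy9-1, against -0.23 and 0.39 in Col-0, a 4.26-fold lower level (log2 change -2.09, 95% interval -2.67 to -1.51, adjusted P = 0.00422), and a second, much dimmer probe gave the same change. XTH16 (AT3G23730) had levels of 1.13 and 1.33 in sahy9-1, against 2.12 and 2.58 in Col-0 (log2 change -1.12, SE 0.18, adjusted P = 0.00911). In both genes every mutant array was below every wild-type array, where the genotypes did not overlap for 80.3% of all tested genes.

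The other XTHs lower in sahy9-1 were XTH6, XTH21 and XTH5. XTH6 (AT5G65730) had levels of 0.42 and 0.52 in sahy9-1, against 1.33 and 1.28 in Col-0 (log2 change -0.84, adjusted P = 0.00313). XTH21 (AT2G18800), an XTH of primary root growth, was measured by probes that disagreed: the brighter gave -0.84 (adjusted P = 0.00499) and the dimmer 0.01. The mean of the probes gave XTH21 a log2 change of -0.41 (adjusted P = 0.0203), and with normexp correction the brighter probe gave a larger change of -1.12 and was not called (adjusted P = 0.189). XTH5 (AT5G13870) was lower by a smaller amount (log2 change -0.55, adjusted P = 0.0046), and with normexp the change was larger and not called (-0.73, adjusted P = 0.0808). With normexp the median of all tested genes also lay lower, at -0.10 against -0.004.

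**Figure D3:**
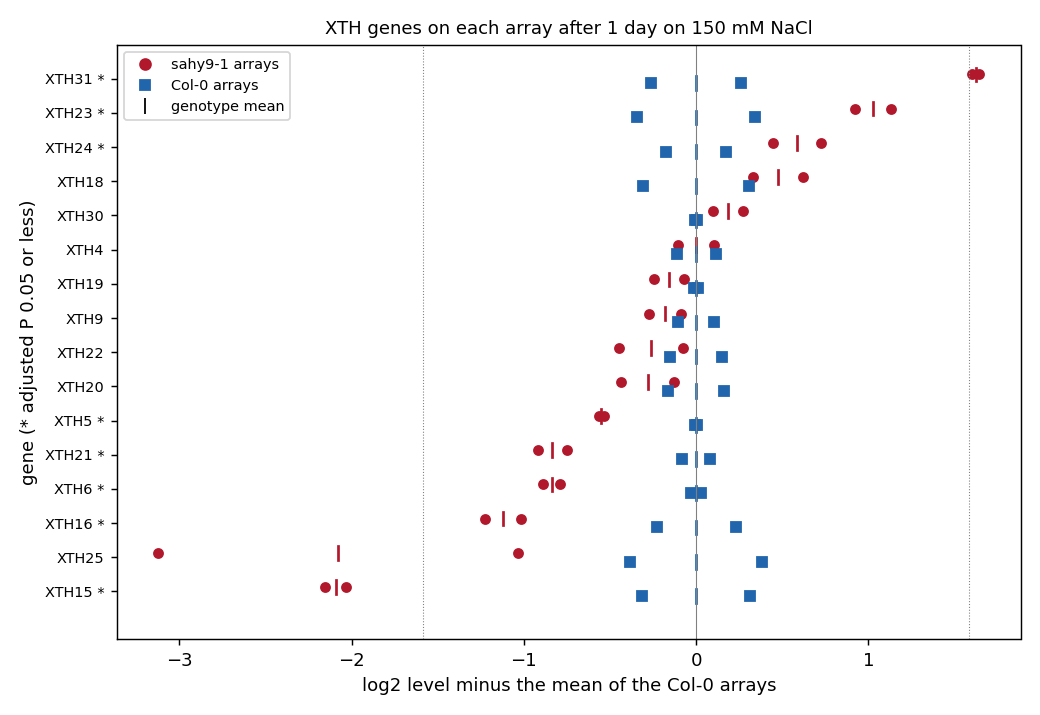
Log2 level of each of the 16 XTH genes on each array, set to the mean of the Col-0 arrays of that gene (x axis); red circles are sahy9-1 arrays, blue squares Col-0 arrays, ticks the genotype means and dotted lines a 3-fold change. XTH31 stands apart on the right and XTH15 on the left, and the sahy9-1 arrays of XTH25 lie far from each other.

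Among the XTHs not called, XTH25 (AT5G57550) was singled out after its values were seen, because its mean change was as large as that of XTH15. Its levels were -5.19 and -3.11 in sahy9-1, against -2.46 and -1.69 in Col-0. The genotypes did not overlap, but the mutant arrays differed from each other by as much as the means of the genotypes did (log2 change -2.08, SE 0.74, adjusted P = 0.0751). Without sahy9-1 replicate 2 the log2 change was -3.12 (adjusted P = 0.021) and without sahy9-1 replicate 1 it was -1.04 (adjusted P = 0.103). XTH22 (AT5G57560), the touch-induced gene TCH4, is the neighbor of XTH25, and it had levels of 3.29 and 3.66 in sahy9-1, against 3.58 and 3.88 in Col-0 (log2 change -0.26, adjusted P = 0.257). XTH24, XTH18 (AT4G30280) and XTH19 (AT4G30290) also lie side by side, and they had log2 changes of 0.59, 0.48 and -0.16. Of these neighbors XTH24 alone was called; XTH18 had levels of 4.24 and 4.53 in sahy9-1, against 3.60 and 4.22 in Col-0, and it was called without Col-0 replicate 2 (log2 change 0.79, adjusted P = 0.0261). XTH4 (AT2G06850), XTH9 (AT4G03210) and XTH20 (AT5G48070) had log2 changes of 0.00, -0.18 and -0.28. For XTH4, an XTH that is also active in stem fibers, the 95% interval of the change ran from -0.31 to 0.32.

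The XTHs varied more between arrays of 1 genotype than the expansins did. The median SD of the 2 arrays was 0.14 in sahy9-1 and 0.222 in Col-0 for the XTHs, and 0.0764 and 0.0979 for the tested expansins, against 0.0526 and 0.0751 over all genes tested. The differences within a genotype ran mostly one way: replicate 2 was above replicate 1 for 13 of 16 XTHs in sahy9-1 and for 15 of 16 in Col-0. Over all 21732 tested genes this held for 9776 in sahy9-1 and 10870 in Col-0, and among the expansins for 10 and 9 of 22. Most of the 16 listed XTHs thus shared a shift between the arrays of each genotype. Among the 11 tested XTHs outside the members, it held for 5 in sahy9-1 and 8 in Col-0. In primary wall cellulose synthesis it held for 5 and 7 of 7 genes, and in xyloglucan synthesis and trimming for 6 and 8 of 10. Among the 6 tested root hair markers it held for 0 in both genotypes. Most of the XTHs outside the members shared the shift in Col-0 but not in sahy9-1, and most genes of both wall synthesis lists showed it. These counts were not tested. In a fit with the replicate number as a block, XTH25 and XTH22 were called lower and XTH18 higher.

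Other genes of the same pathways were read from lists. Over all tested genes, 25.4% were called higher in sahy9-1 and 24.0% lower. Of 17 XTHs outside the members, 11 were tested, of which XTH11 (log2 change 1.31, adjusted P = 0.00426) and XTH28 (0.75, 0.00408) were higher in sahy9-1, and XTH12 (-0.77, 0.00738) and XTH27 (-0.30, 0.0269) were lower. XTH26 was too dim to test and was at least 2.44-fold lower in sahy9-1, where it was not well above background, than in Col-0. The 8 other expansins on the array were at background on all 4 arrays. Of 10 genes that build or trim xyloglucan, the substrate of XTHs, only XLT2 (annotated GT18), a galactosyltransferase, was called (log2 change -1.38, adjusted P = 0.00109), and the median of the list was -0.04. Of 7 genes of primary wall cellulose synthesis, CESA1 alone was called lower (-0.28, 0.0224), with a median of -0.22. The 3 cellulose synthases of the secondary wall were all lower, by -0.67 to -0.75.

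**Figure D4:**
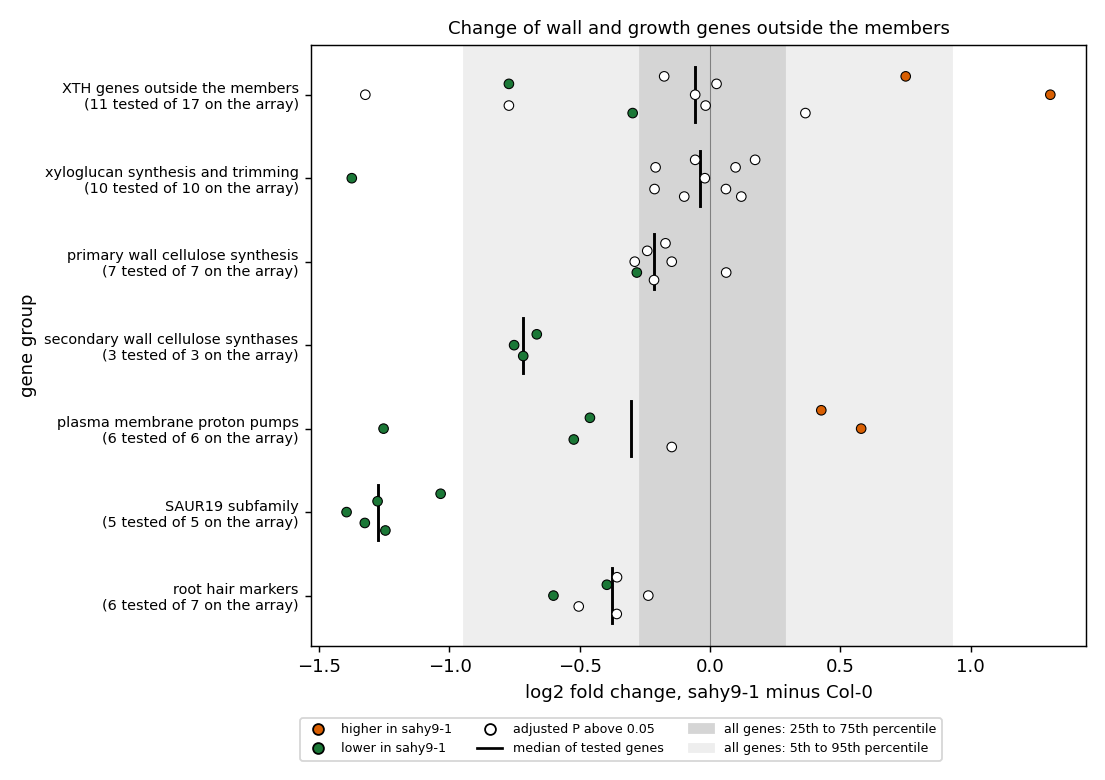
Log2 fold change, sahy9-1 minus Col-0, of wall and growth genes outside the 42 members, by list (rows); black lines are medians of the tested genes and grey bands the 25th to 75th and the 5th to 95th percentiles of all genes tested. The 5 SAUR19 subfamily genes lie between -1.40 and -1.03, while the proton pumps lie on both sides of 0.

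Expansins act in an acidified wall, and the genes of acidification were followed for that reason. Like the other lists, this one was chosen with earlier results of these data known. SAUR19 subfamily proteins keep the plasma membrane proton pumps active by holding back a phosphatase. All 5 SAUR19 subfamily genes on the array were lower in sahy9-1, with log2 changes from -1.40 to -1.03, where 24.0% of all tested genes were called lower. These close paralogs may share signal. Of the 6 proton pump genes, AHA1 and AHA2 (annotated HA1 and HA2), the main pumps of the seedling, were higher (log2 changes 0.43 and 0.58, adjusted P = 0.0114 and 0.00898), and 3 were lower, AHA3 (annotated HA3) the most (-1.25, 0.00691). The pumps and their SAUR activators thus did not move as 1 group.

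Tissue markers moved as follows. Over all 21732 tested genes, 10967 had a log2 change below 0, 25.4% were called higher and 24.0% lower. All 7 leaf photosynthesis markers had log2 changes below 0 and 4 were called lower, with a median of -0.27. Their summed levels were 421 and 446 times the 75th percentile in sahy9-1, against 513 and 519 in Col-0. Of the 7 root markers, NRT2:1 and PHO1 were higher (log2 changes 0.87 and 0.48) and PYK10 and the aquaporin gene TIP2;3 lower (-0.32 and -2.46), with a median of -0.04. Their sums were 44.7 and 44.5 in sahy9-1, against 52.5 and 54.8 in Col-0, and most of this signal came from the PYK10 probe. In all these sums brighter probes weigh more. The other 6 root markers summed to 4.85 and 4.32 in sahy9-1, against 3.85 and 3.68 in Col-0. No marker was at 0. The part of tissue proportions in the member changes was not tested.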

How the data were processed

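RNA of whole seedlings was measured on 4 arrays, 2 sahy9-1 and 2 Col-0. The spot intensities were deposited by the authors as scanner files of Agilent Feature Extraction 10.7.1.1 (submitters' processing notes), with the background already subtracted. The deposited log2 table follows the 75th percentile of each array, although the methods name MAS 5.0, and was used as an alternative only. Models were fitted in limma 3.58.1 under R 4.3.3, and figures were drawn with matplotlib 3.10.9; the code was tested on simulated data. Control and outlier spots were left out, the brightest probe stood for a gene, and log2 intensities were scaled to the 75th percentile. Genotypes were compared unpaired by moderated tests (lmFit, eBayes), with Benjamini-Hochberg adjustment over the 21732 genes that reached an intensity of 100 on each array of 1 genotype or the other. The number of arrays limits the precision.

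Named by rule were members past adjusted P 0.05 and 3-fold, the largest rise and fall of each subfamily, members not above background and members whose probes disagreed; the others were named to account for all members, after their values were seen. The members and lists were chosen with earlier results of these data known. Transcripts were matched to loci through the TAIR10.1 annotation (26309 of 35137). Those without a locus were kept as genes of their own, also in the filter, the adjustment and the shares of all tested genes. Probe sequences were not used here, so cross-hybridization between paralogs was not checked. Alternatives were the background correction (normexp on the median signal, offset 50), scaling, filter, outlier spots, probes, variance trend, replicate block, the methods' t-test, the deposited table and each array left out.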

Additional observations from a re-analysis of the deposited data

How the results depend on the processing

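Quantile scaling, outlier spots kept, a variance trend and the deposited table left every member count as it was. With normexp, 3 expansins and 1 XTH were higher and 3 XTHs lower (2755 genes called in all, against 10736), with EXPA3, EXPA4, EXPA8, EXPA10, EXPA14, XTH5, XTH21, XTH23 and XTH24 lost, and without a filter on dim genes 1 XTH was higher (6579 in all), with EXPA1, EXPA3, EXPA10, EXPA14, XTH23 and XTH24 lost. After Benjamini-Hochberg adjustment, the methods' t-test called 0 members in either family, in either direction and at 3-fold (93 genes in all, 9551 at unadjusted P; 17 members at unadjusted P). With the filter on spots well above background XTH24 was lost and EXPA16 gained. Leaving out 1 array gave 4 to 6 expansins higher and 4 to 7 lower, 1 to 4 XTHs higher and 5 to 6 lower, and 0 to 1 higher and 1 to 3 lower at 3-fold. Without sahy9-1 replicate 1 or 2, 5169 and 4811 genes were called in all. Only 2 pairs share replicate numbers (correlation of deviations 0.438), and no source says that a number marks a shared batch; with a replicate block, 8 expansins and 4 XTHs were higher and 6 and 7 lower, with EXPA9 (adjusted P = 0.0147), EXPB3 (0.0459), XTH18 (0.0173), XTH22 (0.0317) and XTH25 (0.00636, past 3-fold) gained and 11906 calls in all. Direction turned only for members that were not called: EXPA7 (-0.335 to 0.017), EXPA13 (-0.119 to 0.027), EXLA2 (-0.294 to 0.473), EXLA3 (-0.448 to 0.209) and XTH4 (-0.112 to 0.114) when 1 array was left out, EXLA3 with the mean of probes (0.020) and XTH4 with quantile scaling (-0.037). Of 532 member values under alternatives, 461 kept direction and call, 52 lost the call, 10 gained it and 9 turned; causes were not tested.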
